A study of Nicotiana tabacum with 6 samples.

Results

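Histone acetylation is set by enzymes that add acetyl groups to histone tails and by enzymes that remove them, and the transcripts of both kinds were measured here by RNA-seq in tobacco explants kept for 2 weeks on a low or a high concentration of NAA, or naphthaleneacetic acid, which is a synthetic auxin. The genes described here are the 73 loci, of 39825 in the expression table, whose matched protein is described as a histone acetyltransferase (17 loci), a histone deacetylase or a subunit of its complex (30), an ADA2 adapter (4), a SAGA-associated factor (2), a SIN3-like protein (8) or an Elongator complex protein (12). No locus was described as a sirtuin. The rule uses these words and no expression value. Low NAA stands for 0.1 mg/L and high NAA for 0.5 mg/L. Each treatment has 3 libraries of cotyledon explants, about 80 explants per treatment by the design text, and none was grown without NAA. Both media of the study also carried the cytokinin 6-benzyladenine. By its labels the plant is Nicotiana tabacum, by the paper Nicotiana benthamiana, and the locus identifiers belong to the N. benthamiana genome Niben261. How the 3 replicates were drawn from the explants is not stated in the sources used here, so the p-values measure the spread between these libraries only.

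As background, acetyl groups on histone tails loosen the hold of nucleosomes on DNA and are read by bromodomain proteins. Plant acetyltransferases fall into the HAC family (related to animal p300/CBP), the GNAT family with GCN5 and the cytosolic type B enzyme, and the MYST family. GCN5 works in the SAGA complex with the adapter ADA2. Deacetylases fall into the RPD3 type, shared with yeast and animals, the sirtuins, and the HD2 type (HDT), which is found in plants and gathers in the nucleolus. In Arabidopsis, repressors of auxin response bind the corepressor TOPLESS, which brings in RPD3-type deacetylases, and SIN3-like scaffolds and SAP18 are partners of such deacetylases.

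Expression was deposited as FPKM, sequenced fragments scaled to the length of a locus and to the library's mapped total. Loci were compared on log2(FPKM + 1) with limma, and log2FC is the difference of the high minus the low NAA mean on this scale, SE its standard error, and padj the p-value after Benjamini-Hochberg adjustment over the 32443 loci whose mean FPKM reached 0.5. A locus was called higher or lower at high NAA when its padj was under 0.05.

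Of the 73 loci, 65 were expressed enough to be tested, with 14 called higher and 17 lower at high NAA. Over all loci tested, 41.9% were called, 21.7% higher and 20.2% lower, so that the 21.5% and 26.2% of these loci lie near the background. The libraries of the treatments did not overlap at 19 of the 65 with the high NAA values on top and at 23 with the low NAA values on top, where 54.7% of all loci do not overlap (28.8% and 25.9% in these directions). Their median log2FC was -0.02, against 0.02 for all loci tested. On this scale the changes were small: 1 of the 65, a SAP18 locus that fell, had a padj under 0.05 with an absolute log2FC of at least 1. These limits were passed by 5.86% of all loci (3.24% higher and 2.62% lower). Adding 1 to the FPKM shrinks the fold change of weakly expressed loci. With 0.1 added instead, the HAC1 locus of the study had a log2FC of 1.01 and an HDA6-like locus 1.09, both with a padj under 0.05. In 4 classes nearly every locus tested was called. The HAC acetyltransferases (4 of 4 loci tested) and the SIN3-like scaffolds (5 of 6) rose, while the HD2-type deacetylases (5 of 5) and SAP18 (4 of 4) fell. Scaling matters for the balance: with all libraries brought to 1 total (TPM), which moved the median of all loci from 0.02 to 0.19, 24 loci were called higher and 10 lower, next to 34.3% and 12.2% of all loci under the same scaling. The directions of these 4 classes were kept with TPM, with quantile normalization and with median-of-ratios scaling.

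**Figure D1:**
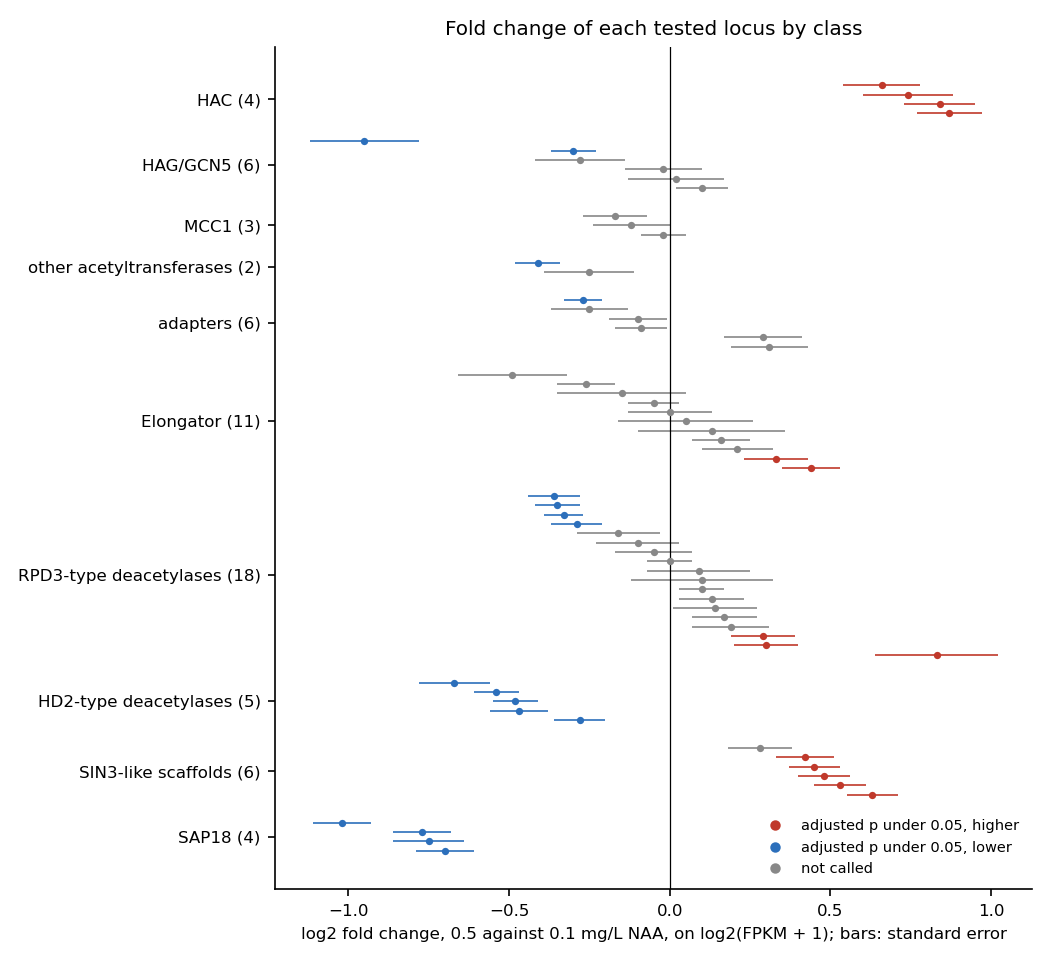
Log2 fold change of the 65 loci tested, high against low NAA, with its standard error, grouped by class (number of loci tested in parentheses). All 4 HAC loci lie to the right, between 0.66 and 0.87, and all 5 HD2-type and 4 SAP18 loci to the left, between -1.02 and -0.28, while the RPD3-type and Elongator loci scatter around 0.

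The number of reads is unknown. From the steps of low FPKM values, replicate 3 at low NAA had 0.739 of the depth of replicate 1, and the other libraries had 1.0 to 1.03. The deposited FPKM summed to 1140994 to 1155639 per library at low and to 986721.8 to 1015420 at high NAA. Direction went with expression level over the whole table: 60.5% of the loci with a mean FPKM of 100 or more were called lower, against 9.08% of those between 0.5 and 5. Among the 2937 loci tested whose description names a protein of an annotated N. tabacum gene, the median log2FC went from -0.08 to 0.16 between 5 bins of equal size, from the shortest to the longest by genomic length of that gene. Only 12 of the 73 loci described here had such a length, so no check of length could be made on them. Photosynthetic cells, marked by chlorophyll a-b binding proteins, also differed: 36 of 38 loci tested were lower, their summed FPKM lay between 4878 and 5533 at low and between 1479 and 1732 at high NAA, and none was at 0 in every library. For dividing cells, 1 of 13 MCM replication loci was higher and none lower, with 1 of 12 mitotic cyclins lower and none higher. Laccases of lignifying cells were higher at 9 and lower at 6 of 33 loci, with a summed FPKM between 175.9 and 195.5 at low and between 160.0 and 215.0 at high NAA. In such bulk samples, fewer cells of a type and less RNA per cell cannot be told apart, and the part of cell composition, level and length in the results was not tested.

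The HAC acetyltransferases, large coactivator enzymes of the p300/CBP kind, were about doubled in transcript level. Their summed FPKM was 11.93, 11.37 and 12.1 at low NAA (replicates 1 to 3, the order used throughout) and 21.56, 23.25 and 25.65 at high NAA, a ratio of means of 1.99. The lowest library of the higher concentration thus lay above the highest of the lower one. HAC1, the locus that the study lists under this name (Niben261Chr18g0699016, chromosome 18), had an FPKM of 3.8, 3.65 and 3.73 at low NAA and of 7.17, 7.7 and 8 at high NAA. The HAC1-like locus on chromosome 3 (Niben261Chr03g0954001) was close to it in level, with 3.71, 3.67 and 4.33 against 7.36, 7.36 and 8.61. That locus rose by a log2FC of 0.84 (SE 0.11, padj = 0.0013), next to 0.87 (SE 0.10, padj = 0.00072) for HAC1.

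The other pair of HAC1-like loci was weaker in level and moved alike. Niben261Chr05g0710014 (chromosome 5) had 2.99, 2.67 and 2.51 at low NAA and 4.38, 5.25 and 6.05 at high NAA, a log2FC of 0.74 (padj = 0.0046). Niben261Chr11g1305004 (chromosome 11) had 1.34, 1.29 and 1.38 against 2.43, 2.85 and 2.84, with 0.66 (padj = 0.0049). On the ratio of mean FPKM, which has no pseudocount, the 4 loci lay between 1.92 and 2.05. In each of the 4, the treatments did not overlap. All 4 were called higher under each of the 15 alternative settings, while of all loci at their level 17.4% (mean FPKM from 0.5 to 5) or 27.6% (from 5 to 20) were called higher. A further HAC-like 1 locus on chromosome 16 (Niben261Chr16g0508002) had an FPKM of 0.22 or less in every library and was not tested.

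**Figure D2:**
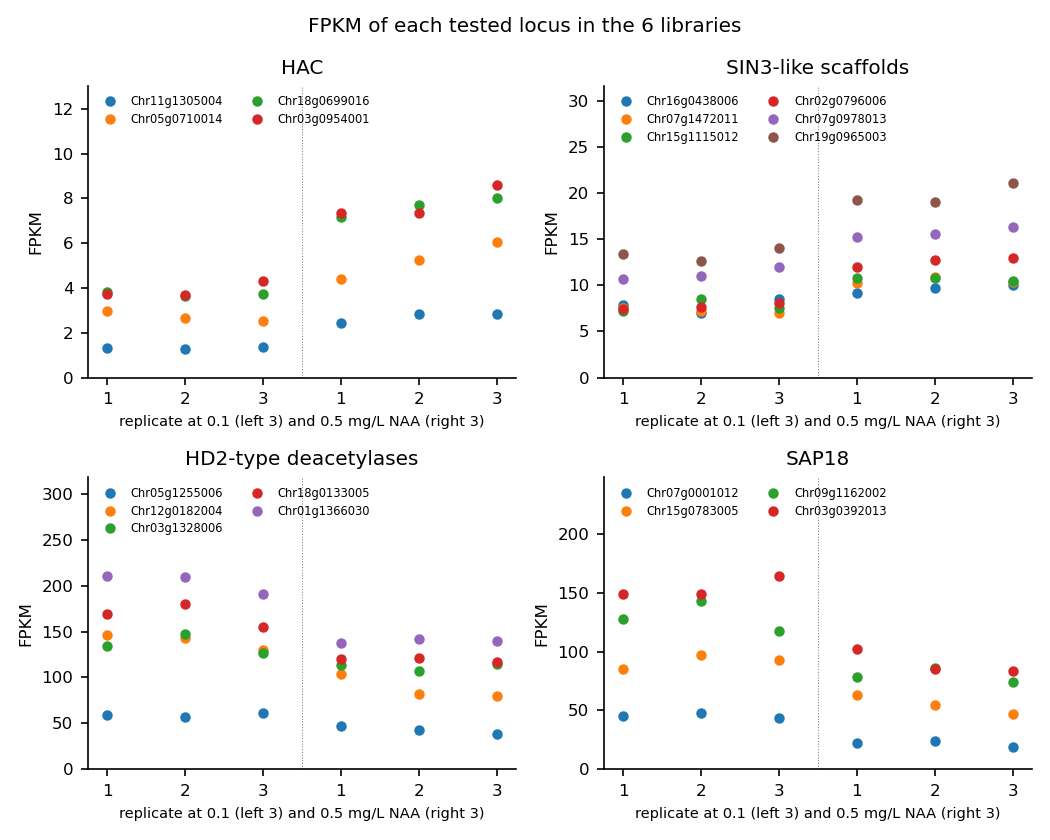
FPKM (vertical axis, from 0) of each tested locus of 4 classes in the 6 libraries, with replicates 1 to 3 at low NAA on the left and at high NAA on the right of the dotted line. Every HAC and SIN3-like locus lies higher on the right and every HD2-type and SAP18 locus lower, each with no overlap between treatments.

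Of the 6 GCN5 and type B loci, none was called higher and 2 lower (33.3%), next to 21.7% and 20.2% of all loci. GCN5 is the catalytic subunit of SAGA, and 4 loci carry its name, 3 of them with neighbouring identifiers on chromosome 19. Of these, Niben261Chr19g0828011 fell, from 48.18, 49.77 and 51.66 at low NAA to 31.45, 27.32 and 18.73 at high NAA. Replicate 3 at high NAA was the lowest, and all of that treatment lay below the other. Its log2FC was -0.95 (SE 0.17, padj = 0.004), with log2FC values from -1.11 to -0.75 over the 15 alternative settings. The neighbour Niben261Chr19g0828010 had 20.63, 17.48 and 18.96 against 20.52, 20.47 and 20.06, a log2FC of 0.10 (padj = 0.39) that was called higher under TPM (0.28, padj = 0.028). The third, Niben261Chr19g0828015, had 6.57, 7.92 and 7.59 against 6.39, 6.6 and 4.71, with -0.28 (padj = 0.14). Of the 3 loci numbered side by side and described as the same enzyme, 1 was thus called, and neither the difference between them nor whether they are separate genes was tested. The GCN5 locus on chromosome 2 (Niben261Chr02g1211001) had 8.87, 11.73 and 10.56 against 9.04, 12.72 and 9.9, a log2FC of 0.02 (padj = 0.94).

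The type B acetyltransferase, which acetylates newly made histones in the cytosol in yeast and animals, has 2 loci. On chromosome 6 (Niben261Chr06g1203042) it fell from 27.74, 29.65 and 29.89 to 24.15, 23.51 and 22.68, a log2FC of -0.30 (SE 0.07, padj = 0.013). This call was lost under TPM (log2FC -0.11, padj = 0.22) and without replicate 2 at low NAA. The weaker copy on chromosome 7 (Niben261Chr07g0287002) had 4.01, 3.74 and 4.49 against 3.72, 4.41 and 3.94, with overlapping treatments (padj = 0.92).

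MCC1, a GNAT-type acetyltransferase known in Arabidopsis for its effect on meiotic crossovers, was well expressed. It was called at none of its 3 loci, next to 41.9% of all loci tested. The MCC1 locus of the study (Niben261Chr19g0797004, chromosome 19) had 21.67, 22.69 and 22.42 at low NAA and 20.88, 21.32 and 17.13 at high NAA. Its log2FC was -0.17 (SE 0.10, padj = 0.20), and 0.02 under TPM. The most expressed copy (Niben261Chr08g0368010, chromosome 8) had 38.59, 32.15 and 38.89 against 30.98, 38.55 and 30.98, with the treatments overlapping (padj = 0.42). The copy on chromosome 6 (Niben261Chr06g0701013) stayed between 27.93 and 30.1 in all 6 libraries. Of the MYST family, acetyltransferases of histone H4, the locus on chromosome 11 (Niben261Chr11g1003003) fell from 36.97, 39.38 and 37.81 to 28.39, 29.02 and 27.57. Its log2FC was -0.41 (SE 0.07, padj = 0.0027), and the call was kept in all 15 alternatives. The MYST copy on chromosome 5 (Niben261Chr05g0244002) had a log2FC of -0.25 (padj = 0.19), and the KAT8 locus next to it by number was at or below 0.63 in every library and not tested.

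Among the 6 adapter loci, 1 was called lower and none higher (16.7% and 0%), next to 20.2% and 21.7% of all loci. SAGA-associated factor 29 of chromosome 16 (Niben261Chr16g0399014), a reader of methylated histone H3 in yeast and animals, fell from 39.16, 39.82 and 40.66 to 33.41, 32.23 and 33.05. This was a log2FC of -0.27 (SE 0.06, padj = 0.012), and -0.08 under TPM (padj = 0.34), while its copy on chromosome 7 (Niben261Chr07g1500015) had -0.10 (padj = 0.36). The ADA2 locus of the study (Niben261Chr11g0355004, chromosome 11) had 6.37, 7.57 and 6.87 at low NAA and 9.69, 9.15 and 7.67 at high NAA. The treatments did not overlap, yet the log2FC of 0.31 missed the threshold (SE 0.12, padj = 0.067), which it passed without replicate 3 at high NAA (padj = 0.032) and under TPM (padj = 0.01). The other ADA2 copy (Niben261Chr19g0195002) was close to it with 0.29 (padj = 0.093), whereas the ADA2b loci had -0.09 and -0.25 (padj = 0.37 and 0.14).

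Elongator, the complex that assists transcription and modifies transfer RNA and whose subunit ELP3 carries an acetyltransferase domain, had 11 loci tested, of which 2 (18.2%, next to 21.7% of all loci) were called higher and none lower. Both calls were outside the catalytic subunit. ELP4 on chromosome 6 (Niben261Chr06g0094014) rose from 17.67, 18.67 and 20.81 to 25.65, 28.01 and 25.07, a log2FC of 0.44 (SE 0.09, padj = 0.0063). ELP2 on chromosome 19 (Niben261Chr19g1455008) rose from 8.18, 8.72 and 9.91 to 11.75, 10.72 and 11.87, with 0.33 (padj = 0.033), and it was called in 9 of 15 alternatives. The main ELP3 locus (Niben261Chr06g0633011, chromosome 6) pointed the other way, with 46.3, 50.55 and 43.51 against 39.02, 42.35 and 35.22 and a log2FC of -0.26 (SE 0.09, padj = 0.054). It passed the threshold in 3 of 15 alternatives: without replicate 2 at high NAA (-0.33, padj = 0.027), with median-of-ratios scaling (0.042) and with the replicate block (0.039). The log2FC of this locus was -0.07 under TPM (padj = 0.51) and -0.2 with quantile normalization (padj = 0.13). Under TPM, 4 Elongator loci were called higher, as were 34.3% of all loci. The summed FPKM of the complex was 115.8 ± 4.27 (SD, n = 3) at low NAA and 118.2 ± 5.16 at high NAA. The other Elongator loci were not called.

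The RPD3-type deacetylases, the catalytic erasers of the family, changed in both directions. Of 18 loci tested, 3 were called higher and 4 lower, shares of 16.7% and 22.2% against 21.7% and 20.2% of all loci. The 4 lower calls fell on HDA19 (both loci), HDA15 and HDA8. HDA19, in Arabidopsis the main RPD3-type enzyme recruited by TOPLESS, was the most expressed, at 74.85, 77.18 and 76.92 on chromosome 14 (Niben261Chr14g0232003) at low NAA. At high NAA this locus had 59.94, 62.68 and 59.34, a log2FC of -0.33 (SE 0.06, padj = 0.005). The copy on chromosome 9 (Niben261Chr09g0184001) went from 24.34, 23.94 and 22.89 to 18.43, 18.73 and 18.13, with -0.35 (padj = 0.0064). Both copies thus stood about 20.9% lower in sum, with tight replicates. Under TPM their log2FC values were -0.14 and -0.16 and neither was called (padj = 0.1 and 0.091), and no RPD3-type locus was called lower. The 4 falls of this class were thus lost under TPM. With median-of-ratios scaling and with quantile normalization, 4 RPD3-type loci were called lower. Both HDA19 loci and the HDA8 locus were called lower in 14 of the 15 alternative settings, and the HDA15 locus in 10.

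HDA8 on chromosome 13 (Niben261Chr13g0752007) had 15.73, 14.75 and 15.02 at low NAA and 11.12, 11.85 and 11.91 at high NAA, the largest fall of the class with a log2FC of -0.36 (SE 0.08, padj = 0.0094). HDA15 on chromosome 8 (Niben261Chr08g0092012) had 24.66, 25.11 and 25.87 against 21.95, 20.02 and 19.48 (-0.29, padj = 0.019), while its other copy (Niben261Chr01g1092001) had overlapping treatments (padj = 0.35). A rise in level was clearest for a weakly expressed locus described as HDA6-like (Niben261Chr08g0269001, chromosome 8). HDA6 is a nuclear deacetylase that acts in gene silencing in Arabidopsis. The locus had 2.3, 2.68 and 1.32 at low NAA and 4.27, 4.13 and 4.85 at high NAA, a log2FC of 0.83 (SE 0.19, padj = 0.01), called in all 15 alternatives. Its neighbour by number, described as HDA6 of N. benthamiana (Niben261Chr08g0269009), had 2.02, 2.04 and 1.46 against 1.71, 2.51 and 1.89 (padj = 0.67). The other 3 HDA6 loci tested had log2FC values from 0.10 to 0.17 and were not called.

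HDA2 of the study's list (Niben261Chr03g1528011, chromosome 3) had 11.32, 9.69 and 11.84 against 13.2, 13.37 and 14.14, a log2FC of 0.29 (SE 0.10, padj = 0.045). The call was kept in 5 of 15 alternatives, and it was lost without either of replicates 1 and 2 at low NAA or any replicate at high NAA (adjusted p between 0.069 and 0.14). HDA14 on chromosome 15 (Niben261Chr15g0224005), a plastid deacetylase in Arabidopsis, had 9.83, 9.57 and 11.63 against 13.34, 12.9 and 12.62 (0.30, padj = 0.039) and was called in 7 of 15. The other HDA2 locus (Niben261Chr14g1010001) had 0.13 (padj = 0.35), the other HDA14 locus (Niben261Chr07g0221006) -0.10 (padj = 0.55) and a locus described as a putative histone deacetylase (Niben261Chr13g1141010) 0.10 (padj = 0.29). HDA5 (Niben261Chr06g1113011) lay between 28.28 and 30.08 in all libraries, and HDA9, with 2 loci, was not called (padj = 0.23 and 0.75). The 3 RPD3-type loci that were not tested, an HDA6-like fragment and a pair of HDA8 loci with neighbouring identifiers, had an FPKM of 0.64 or less in every library.

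The HD2-type deacetylases were the most abundant erasers and all 5 loci fell. Their summed FPKM was 720.6, 737.1 and 664.1 at low NAA and 522.9, 494.3 and 488.3 at high NAA, a change of -29.0%, with a gap between the treatments wider than the spread within either. The most expressed, an HDT1-like locus on chromosome 1 (Niben261Chr01g1366030), had 210.88, 209.31 and 190.97 against 137.29, 141.58 and 139.34. Its log2FC was -0.54 (SE 0.07, padj = 0.001). The largest fall was on chromosome 12 (Niben261Chr12g0182004), from 146.9, 143.6 and 130.42 to 103.45, 81.58 and 79.53, a log2FC of -0.67 (SE 0.11, padj = 0.003).

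The smallest fall was that of HDT1 on chromosome 3 (Niben261Chr03g1328006), from 134.03, 146.92 and 126.65 to 114.07, 107.19 and 114.32. Its log2FC of -0.28 (padj = 0.023) was called in 10 of 15 alternatives and not under TPM (-0.08, padj = 0.39). HDT1 on chromosome 18 (Niben261Chr18g0133005) had -0.48 and the HDT1-like locus on chromosome 5 (Niben261Chr05g1255006) -0.47, with adjusted p of 0.0023 and 0.0056. Except for the copy on chromosome 3, each was called lower in all 15 alternatives. Of all loci tested with a mean FPKM of 100 or more, where 4 of the 5 lie, 60.5% were called lower and the median log2FC was -0.41. The locus on chromosome 5 lies between 50 and 100, where 42.1% were lower. The HD2-type median of -0.48 is thus near that of other highly expressed genes.

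SAP18 is a small subunit of the SIN3 deacetylase complex that also takes part in RNA splicing complexes, and all 4 of its loci fell. Together the 4 loci had a summed FPKM of 407, 437.4 and 418.5 at low NAA and of 265.5, 249.1 and 223.6 at high NAA, a change of -41.5%. The locus on chromosome 7 (Niben261Chr07g0001012) fell from 44.91, 47.43 and 43.31 to 22.63, 23.58 and 19.2, a log2FC of -1.02 (SE 0.09, padj = 0.00041). The most expressed, on chromosome 3 (Niben261Chr03g0392013), fell from 148.68, 149.03 and 163.97 to 101.91, 84.85 and 83.55, with -0.77 (SE 0.09, padj = 0.00097). The loci on chromosomes 9 and 15 (Niben261Chr09g1162002 and Niben261Chr15g0783005) had -0.70 and -0.75 (padj = 0.0014 and 0.0022). All 4 were called lower in all 15 alternatives, with log2FC values from -0.83 to -0.51 under TPM. Each lay below the median of its level, which was -0.05 for loci with a mean FPKM of 20 to 50, -0.18 for 50 to 100, and -0.41 for 100 or more. The locus on chromosome 7 is in the first of these ranges, where 27.2% of loci were called lower.

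The SIN3-like scaffolds moved opposite to SAP18. SIN3 is the large protein that holds the deacetylase and its partners together. The 6 loci tested, 4 described as Sin3-like 2 and 2 as Sin3-like 3, summed with 2 near-silent Sin3-like 3 loci to an FPKM of 54.08, 54.16 and 57.41 at low NAA and of 76.83, 78.81 and 81.3 at high NAA, a ratio of 1.43. The largest rise was that of Sin3-like 3 on chromosome 2 (Niben261Chr02g0796006), from 7.42, 7.7 and 8.1 to 11.95, 12.73 and 12.93, a log2FC of 0.63 (SE 0.08, padj = 0.0014). Its copy on chromosome 19 (Niben261Chr19g0965003), the most expressed SIN3-like locus, rose from 13.41, 12.66 and 14.09 to 19.23, 19.07 and 21.09, with 0.53 (padj = 0.0024). Of the Sin3-like 2 loci, those on chromosomes 7 (a pair, Niben261Chr07g1472011 and Niben261Chr07g0978013) and 15 (Niben261Chr15g1115012) had 0.48, 0.45 and 0.42 (padj = 0.0039, 0.0046 and 0.0095). The remaining one on chromosome 16 (Niben261Chr16g0438006) had 7.83, 7.03 and 8.49 against 9.21, 9.72 and 10.04 (0.28, padj = 0.053). The 5 calls were kept in all 15 alternatives. Of all loci tested with a mean FPKM between 5 and 20, where all 6 lie, 27.6% were called higher, and the median log2FC was 0.09.

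Writers were then compared with erasers, counting as writers the 14 HAC, GCN5, type B and MCC1 loci (13 tested) and as erasers the 26 RPD3-type and HD2-type loci (23 tested). Of the writers, 4 were called higher and 2 lower, and of the erasers 3 higher and 9 lower. These are 30.8% and 15.4% of the writers tested and 13.0% and 39.1% of the erasers, next to 21.7% and 20.2% of all loci. The median log2FC was -0.02 for writers and -0.05 for erasers, with ranges from -0.95 to 0.87 and from -0.67 to 0.83. The medians of the classes are thus close together, and the ranges overlap. These writers leave out the MYST and ELP3 loci. With all acetyltransferases and ELP3 counted, 4 of 17 loci tested were higher and 3 lower (23.5% and 17.6%). Their median was -0.12, a difference of -0.07 from that of the erasers. The writers' rises were the HAC loci alone, and 5 of the 9 falls of the erasers were HD2-type loci. Under TPM, where 34.3% of all loci were higher and 12.2% lower, 5 writers were higher and 1 lower, and 7 erasers higher and 4 lower. With single libraries left out, the count of erasers called higher was 1, the HDA6-like locus, in each case except without replicate 3 at low NAA, where it was 3. The count of writers called lower was 1 without replicate 2 at low NAA and 2 without each of the others.

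A ratio of summed FPKM within a library is the same under any scaling by a common factor. The summed FPKM of writers over that of erasers was 0.213, 0.211 and 0.232 at low NAA and 0.247, 0.267 and 0.237 at high NAA, so that the treatments did not overlap, with a small gap. The gap rests on the HD2-type loci, which made up 707.3 of the eraser sum of 1004 at low NAA. Over the RPD3-type erasers alone the writers had 0.733, 0.754 and 0.734 against 0.715, 0.739 and 0.654, with overlapping treatments, and over the HD2-type alone 0.301, 0.294 and 0.338 against 0.377, 0.419 and 0.372. On the deposited scale both sums were lower at high NAA: 219.3 ± 4.71 (SD, n = 3) against 195.4 ± 12.9 for writers, and 1004 ± 29.0 against 780 ± 16.7 for erasers. As TPM, the writers' sum was 188.4, 187.4 and 197 at low and 195, 204.1 and 184.2 at high NAA, with overlapping treatments, so its direction depends on the scaling. That of the erasers was 883.7, 886.4 and 850.6 against 789.9, 763.2 and 776.7, with no overlap. HAC over HD2-type FPKM was 0.0166, 0.0154 and 0.0182 at low NAA and 0.0412, 0.047 and 0.0525 at high NAA. SIN3-like over SAP18 FPKM was 0.133, 0.124 and 0.137 against 0.289, 0.316 and 0.364. These last pairs of classes were picked after their values were seen, and no test was made on the ratios. Each sets a class of lower expression over one of higher expression. Over all loci tested, the median log2FC was 0.10 at a mean FPKM of 0.5 to 5 and -0.41 at 100 or more. FPKM is a level per length, but the log2FC itself went with gene length. Among the 2937 loci with a length from an annotated N. tabacum gene, the median was -0.08 in the shortest bin and 0.16 in the longest. The part of expression level and of gene length in these ratios was not tested.

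**Figure D3:**
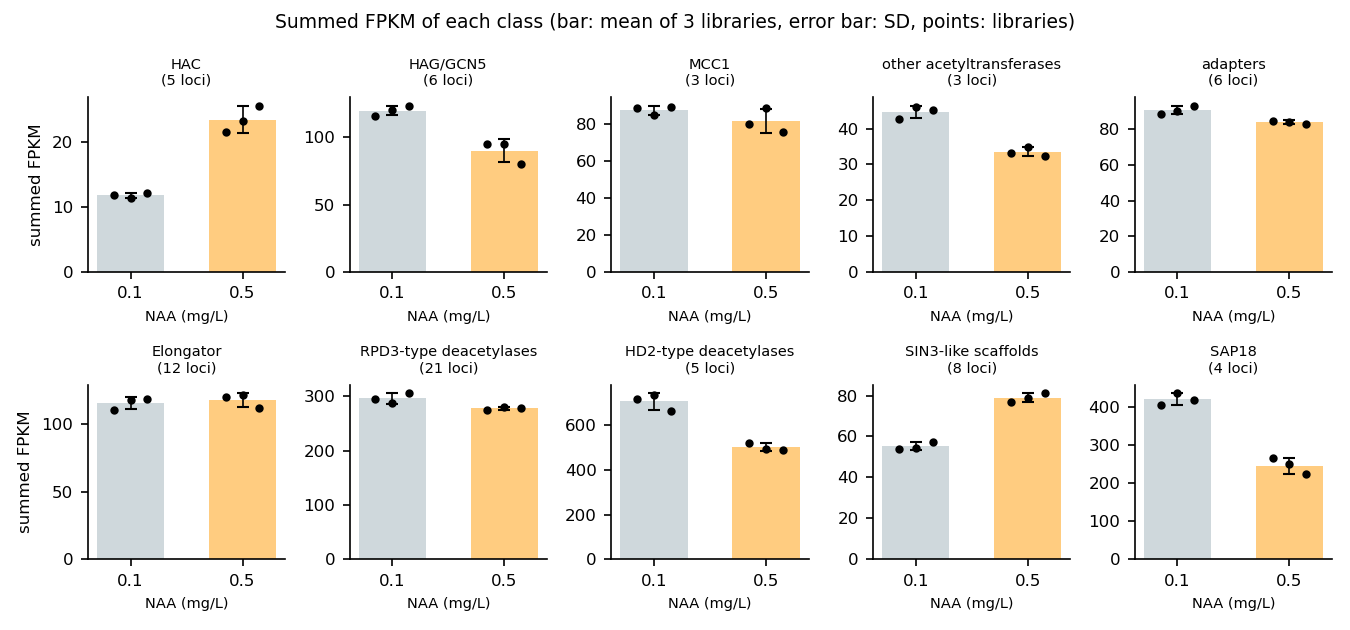
Summed FPKM of the loci of each class (vertical axes from 0, different scales) at low and high NAA, with bars for the mean of 3 libraries, error bars for the SD and points for the libraries. HAC goes from a mean of 11.8 to 23.49 and SAP18 from 420.9 to 246.1, while Elongator (115.8 and 118.2) overlaps between treatments.

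Expression level and direction went together within the family as they did in the whole table. Of the 9 loci tested with a mean FPKM of 50 or more (3 between 50 and 100, and 6 above), all were called lower, where 42.1% (50 to 100) and 60.5% (100 or more) of all loci were. These 9 are the HD2-type loci, the SAP18 loci except that on chromosome 7, and HDA19 on chromosome 14, whose falls are given above. Of the 11 loci tested below 5, none was lower and 3 were higher, against 9.08% and 17.4% of all loci. In the middle range, from 5 to 20, 10 of 32 loci were called higher and 1 lower, against 27.6% and 13.8% of all loci at that level. Between 20 and 50, 7 of 13 were lower and 1 higher, against 27.2% and 21.9%.

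**Figure D4:**
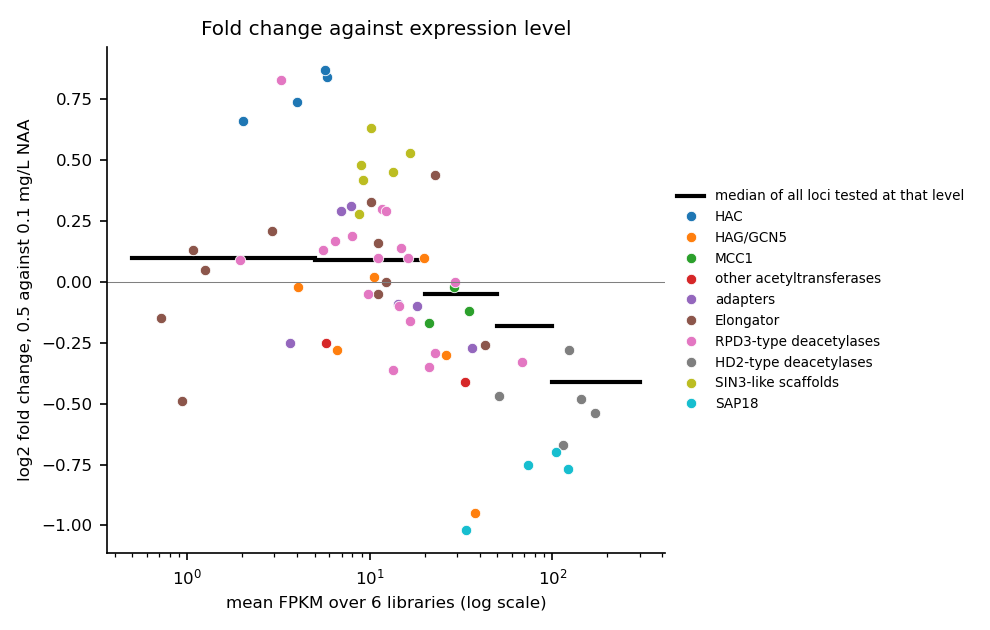
Log2 fold change (high against low NAA) of the 65 loci tested against their mean FPKM over 6 libraries on a log scale, coloured by class, with black bars for the median of all loci tested at that level. The black bars go from 0.10 at the left to -0.41 at 100 or more, the HAC loci lie above them, and the SAP18 loci below.

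No protein of this family with several gene copies had calls in opposite directions, and how often this holds over all loci was not determined. The tested loci include 21 such proteins, with 58 loci in all. For 5 proteins every copy was called the same way: HAC1 and Sin3-like 3 (all higher), and HDA19, HDT1 and SAP18 (all lower). For 10 some copies were called and for 6 none. Near-identical copies can share reads, and how such reads were assigned is not given in the sources used here, so copies are not independent measurements.

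Other genes of acetyl-based control were taken from lists of description words. Acetyl-lysine readers (bromodomain and GTE proteins) were higher at 13 and lower at 1 of 26 loci tested, with a median log2FC of 0.31, next to 21.7% and 20.2% of all loci and their median of 0.02. With TPM 17 readers were higher and 0 lower, and with quantile normalization 9 and 3. The bromodomain-containing RNA-binding protein 2 (Niben261Chr09g1374012, chromosome 9) had the largest rise among them, from 54.48, 55.67 and 50.7 to 88.72, 99.29 and 104.12 (0.85, SE 0.08, padj = 0.00048). TOPLESS corepressors, which link Aux/IAA repressors to deacetylases, were higher at 7 of 9 loci and lower at none, with a median of 0.34. A topless-related protein 4 on chromosome 12 (Niben261Chr12g0043002) about doubled, from 9.65, 10.02 and 12.53 to 20.17, 20.32 and 22.75 (0.92, padj = 0.00099). Those 2 loci were named after their values were seen.

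Subunits of SAGA and of NuA4, the complex that holds MYST enzymes, went in both directions, and their counts stand next to 21.7% of all loci called higher and 20.2% lower. TRRAP-like loci, the very large scaffold of both complexes, were higher at 3 of 3, with log2FC values from 0.74 to 1.16. Niben261Chr07g1059014 and Niben261Chr07g1059018 among them have neighbouring identifiers on chromosome 7, and whether they are separate genes was not tested. MEAF6, a small NuA4 subunit, was lower at 3 of 3 (-0.72 to -0.45), and MRG1-like loci, chromodomain proteins, at 2 of 2 (-0.69 and -0.29), of which 2 and 1 were still called under TPM. The MSI histone-binding subunits were lower at 3 of 6, 1 under TPM. TFIID subunits, which share parts with SAGA, were higher at 10 and lower at 7 of 45 loci, shares near those of all loci, with a median of -0.03. Enhancer of polycomb was higher at 1 of 3. Of the enzymes that make acetyl-CoA, ATP-citrate synthase was higher at 1 and lower at 4 of 10 loci, but higher at 2 and lower at 1 under TPM. Acetyl-CoA synthetase was higher at 1 of 4. For the histones themselves, of 40 loci matched by the words for core histones, which include a histone chaperone and a centromeric form, 33 were lower and none higher. Of these 40, 29 had a mean FPKM of 100 or more, where 24 were lower with a median of -0.64, next to 60.5% and -0.41 for all loci at that level. The 40 had a median of -0.64 and the list a summed FPKM of 8645 to 10440 at low and of 5504 to 6759 at high NAA. Under TPM 28 of the 40 were lower (median -0.45), next to 12.2% of all loci. With quantile normalization 23 were lower (median -0.44), next to 19.7% of all loci.

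**Figure D5:**
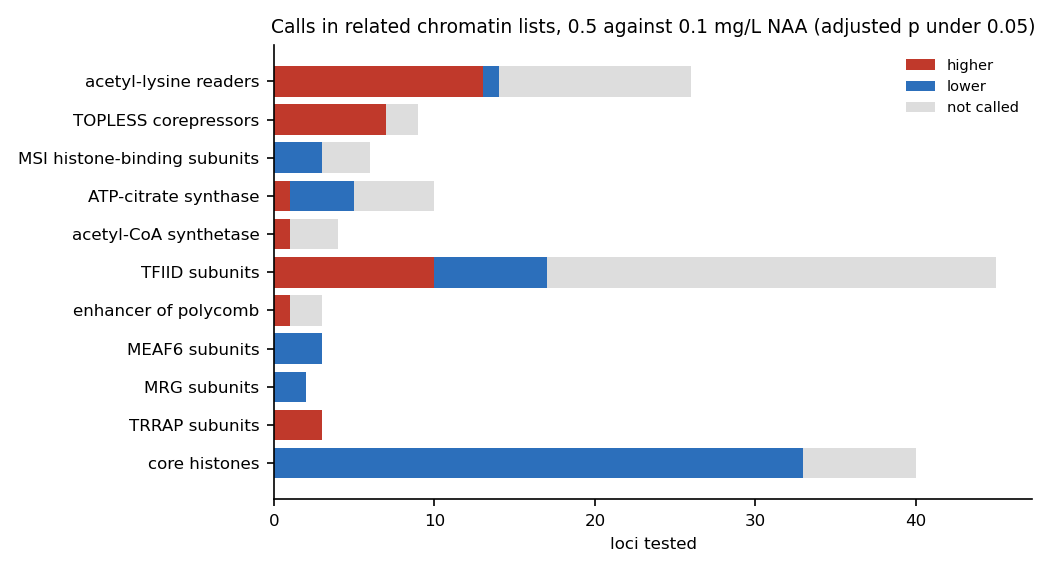
Number of loci tested (horizontal axis) in each list of related chromatin genes, split by call at a padj under 0.05 into higher, lower and not called at high against low NAA. Readers (13 of 26) and TOPLESS loci (7 of 9) were more often called higher than lower, and core histones (33 of 40) lower.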

How the data were processed

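RNA-seq of tobacco explants (6 libraries, 3 per NAA concentration) was grouped by the sample titles. The authors deposited a table of FPKM values per locus, rounded to hundredths, with protein descriptions and gene ontology terms. How the reads of these libraries were aligned and counted is not given in the sources used here, and the paper describes fastp, HISAT2, StringTie and RSEM on Niben261 for its later stages. FPKM are not counts, so no count model was used. Loci whose mean FPKM reached 0.5 were tested on log2(FPKM + 1) with limma 3.58.1 in R 4.3.3 (moderated variances with a mean-variance trend), with Benjamini-Hochberg adjustment over 32443 loci. The fold change understates that of weakly expressed loci. For a single locus, 3 libraries against 3 allow no two-sided exact permutation p below 0.1. The procedure was also run on simulated libraries in which few loci changed, so it was not checked at the share of calls seen here.

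Members were matched by words of the description, and classes by the first matching word. Members, classes and lists were chosen with earlier results of these data known. The rule for named genes takes loci past both thresholds, the highest level, largest rise and largest fall of each class, and the study's HAC1, MCC1, HDA2 and ADA2. Other members are named to describe their class in full, after their values were seen, as was the split of corepressor subunits into SIN3-like and SAP18. Some members are counted in their class and not reported here on their own. Lists for SPT20 and YEATS matched no locus. Alternatives were pseudocounts of 0.1 and 0.01, no filter or a minimum of 1, TPM, median-of-ratios and quantile scaling, the replicate block, no trend, and each library left out. Shares by level and gene length were added after the data were seen. Figures were drawn with matplotlib 3.10.9.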

Additional observations from a re-analysis of the deposited data

How the results depend on the processing

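Scaling all libraries to 1 total (TPM) changed the most: 34.3% of all loci were called higher and 12.2% lower, and 24 members higher and 10 lower, 1 writer lower, 7 erasers higher and 4 lower, and 7 RPD3-type loci higher and 0 lower. It moved the median log2 fold change of writers to 0.17 and of erasers to 0.12, and turned those of the MCC1 loci Niben261Chr08g0368010 and Niben261Chr19g0797004 to 0.06 and 0.02, both not called. With quantile normalization the writers' median was -0.09, its difference from that of the erasers -0.02 in place of 0.04, and 1 eraser, of the RPD3 type, was called higher. Without a filter on low values it was also 1. Counting all acetyltransferases and ELP3 as writers gave a median of -0.12 and a difference of -0.07. With an absolute log2 fold change of at least 1 also required in the main setting, 0 members were higher and 1 lower. That count depends on the pseudocount of 1: with 0.1, HAC1 (Niben261Chr18g0699016) had 1.01 and HDA6-like Niben261Chr08g0269001 had 1.09. Under TPM HAC1 had 1.02.

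With each library left out in turn, members called higher ranged from 11 to 14 and lower from 14 to 18. Writers called lower ranged from 1 to 2, erasers higher from 1 to 3 and lower from 7 to 9, and RPD3-type loci higher from 1 to 3 and lower from 3 to 4. The 1 eraser kept was HDA6-like Niben261Chr08g0269001, and without replicate 3 at 0.1 mg/L NAA the count stayed at 3. The difference of the writers' and erasers' medians ranged from -0.06 without replicate 2 to 0.13 without replicate 1 at 0.5 mg/L NAA, so its sign rests on single libraries. The cause of these shifts was not tested.

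Whether libraries of the same replicate number were paired is not stated in the sources used here. Their deviations from the treatment means had correlations of 0.01 to 0.022, and each library correlated best with its own number. Correlations this small cannot settle the question. With the replicate block, 11 members were called higher and 16 lower, 1 eraser (RPD3 type) higher and 7 lower. The counts of HAC and SIN3-like loci called higher and of SAP18 called lower were never below 4, 5 and 4, and HD2-type loci called lower were 4 or 5. Depth limits the loci near an FPKM of 1 or below, where single fragments move the value.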
